A study of Mus musculus with 2 samples.

Results

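The collagen genes of mouse dorsal skin were taken as every gene whose symbol is Col, a number, the letter a and a number, and 44 of the 33904 genes in the deposited gene list met that rule. The rule reads the symbol alone and uses no measured value, although the family was picked for description with earlier results of these data known. They were read in 2 single-cell RNA libraries, 1 called Ctrl and 1 called AD, from female C57BL/6J mice 7 weeks of age whose back had been cleared of hair with a depilatory cream. Ctrl skin received 100% ethanol once daily on a patch of 2 cm by 2 cm, and AD skin received MC903 (calcipotriol, a vitamin D analogue used to raise a dermatitis resembling atopic dermatitis) in the same vehicle at 4.5 nmol per application, with skin taken on day 10 in both. The number of mice behind each library is not given in the sources used here, and ethanol and hair removal were common to both groups.

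Collagens are proteins of 3 chains wound into a triple helix, and the family is divided by what its members build. Fibrillar collagens form the dermal fibres, with types I and III as the bulk and types V and XI regulating fibril assembly. FACIT collagens sit on fibril surfaces, type VI forms beaded microfilaments around cells, type IV makes the sheet of the basement membrane, types XV and XVIII (the multiplexins) lie at basement membrane zones, and type VII forms the anchoring fibrils that hold the epidermis to the dermis. Transmembrane collagens such as type XVII, a component of the hemidesmosome, stay in the plasma membrane. In skin, fibroblasts are the main source of the dermal collagens.

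The Ctrl library held 125184653 unique molecular identifiers (UMIs, each counting 1 captured transcript at its 3′ end) in 12598 barcodes, and the AD library held 76106062 in 8778. After a filter on genes and mitochondrial share, 11399 and 8179 cells remained, with a median of 7813 and 6330 UMIs. The libraries had 35 barcode sequences in common. Cells were placed in gates by marker genes, none of them a collagen, and 1209 Ctrl cells (10.6%) and 398 AD cells (4.87%) that met more than 1 gate were left out. The fibroblast gate, which required a Pdgfra UMI and no other gate, held 4940 Ctrl cells with a median of 8859 UMIs and 4834 AD cells with a median of 6810. Dcn, a proteoglycan of fibroblasts that the gate did not use, stood at 12136 CPM (counts per 1000000 UMIs of the gate) there in Ctrl and 8439 CPM in AD, against at most 1201 and 907 CPM in any other gate. Both of those highest values were in the Schwann gate. Lum and Dpt, also not used by the gate, stood there at 2232 and 1876 CPM in Ctrl and at 194 and 387 CPM in AD. Their highest values in any other gate were 133 and 394 CPM in Ctrl and 4.53 and 59.0 CPM in AD. Both were thus lower in AD fibroblasts by more than Dcn was. Of the markers set aside for checking, Emcn was not higher in blood vessel than in lymphatic cells of AD (454 and 599 CPM), Des in Ctrl was lower in the muscle than in the mural gate (591 and 609 CPM), and Acta1 and Ckm were nearly absent from the muscle gate. With 1 library a group there is no replicate check, the treatment and the library cannot be told apart, and no test was possible. All intervals below are exact 95% intervals that cover counting error only: Poisson for a CPM, conditional binomial for a ratio and Clopper-Pearson for a share. CPM counts 3′ ends and is not divided by transcript length.

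Collagen UMIs were also counted in immune cells, although fibroblasts are the main source of the dermal collagens. Whether the UMIs in immune cells were free RNA, doublets or the cells' own transcripts was not tested. In the immune gate (1529 Ctrl and 852 AD cells), Col1a1 stood at 667 CPM (Ctrl) and 10.1 CPM (AD), which is 5.68% and 1.30% of its level in the fibroblast gate of the same library. Col3a1 stood there at 449 and 6.05 CPM, and Col4a1 at 16.0 and 13.3 CPM. The share of the fibroblast level was not the same for every member: Col4a1 stood at 2.40% in Ctrl and 1.82% in AD, and Col27a1 at 22.1 of 34.1 CPM in Ctrl and above fibroblasts in AD (5.55 and 4.92 CPM). Col1a1 in Ctrl was lower in the muscle, keratinocyte, blood vessel and lymphatic gates (124, 201, 260 and 271 CPM) than in the immune gate, so the immune gate is not a measure of 1 background for the whole library. All 10 collagens compared in that gate were lower in AD, beside 6.43% of all genes compared there, and 0 were higher, beside 3.41%.

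The upstream stretches below are shown because these 4 genes were among those lower in AD fibroblasts; each is the 150 bases before the start site, on the gene's own strand, from RefSeq (GRCm38.p6), at a start that GENCODE M21 shares and with no annotated exon inside it. Capitals mark CCAAT (or ATTGG, the same motif on the other strand) and TATAAA (or TTTATA).
Col3a1, chr1:45311388-45311537, plus strand: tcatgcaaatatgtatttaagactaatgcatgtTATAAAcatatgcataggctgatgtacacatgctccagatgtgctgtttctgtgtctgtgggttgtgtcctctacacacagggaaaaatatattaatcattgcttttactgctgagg
Col5a3, chr9:20815068-20815217, minus strand: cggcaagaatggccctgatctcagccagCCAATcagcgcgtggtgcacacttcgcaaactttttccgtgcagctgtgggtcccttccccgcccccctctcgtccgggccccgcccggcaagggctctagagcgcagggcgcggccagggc
Col11a1, chr3:114030390-114030539, plus strand: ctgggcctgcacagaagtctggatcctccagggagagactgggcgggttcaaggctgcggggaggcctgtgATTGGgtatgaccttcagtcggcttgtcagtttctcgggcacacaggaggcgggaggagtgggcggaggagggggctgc
Col6a3, chr1:90843972-90844121, minus strand: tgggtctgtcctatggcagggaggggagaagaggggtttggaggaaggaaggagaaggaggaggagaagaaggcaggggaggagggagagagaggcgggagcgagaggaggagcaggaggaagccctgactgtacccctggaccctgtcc
Promoter windows were given for 35 of the 44 members. CCAAT was in the 250 bases before the start in 13 of their 38 windows (34.2%), against 33.8% of all 32851 windows, and TATAAA in 5 (13.2%), against 12.4% of all windows. Both motifs were about as frequent among collagen windows as among windows at large.

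Type IV genes lie in head-to-head pairs, which are shown because Col4a1, Col4a2 and Col4a4 stayed within 2-fold in fibroblasts. Col4a1 (minus strand, start at chr8:11312826) and Col4a2 (plus strand, start at chr8:11312805) overlap by 22 bases in GENCODE M21 (GRCm38). On chromosome X, 1308 bases lie between the starts of Col4a5 and Col4a6. Col4a4 and Col4a3 on chromosome 1 are separated by 71 bases that both genes share as upstream sequence, shown on the strand of Col4a4.
Between Col4a4 and Col4a3, chr1:82586850-82586920, minus strand: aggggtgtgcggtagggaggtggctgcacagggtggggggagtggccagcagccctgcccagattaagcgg
The stretch holds neither CCAAT nor TATAAA on either strand.

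In the fibroblast gate the collagens made up 4.36% of all UMIs in Ctrl (2065061 UMIs) and 0.511% in AD (188015 UMIs), an 8.53-fold lower level in AD. Of the 44 members, 22 reached 20 CPM in either library and could be compared. Of these, 17 (77.3%) were lower in AD by 2-fold or more with 1 CPM added, 0 were higher, and 5 (Col4a1, Col4a2, Col4a4, Col12a1 and Col23a1) stayed within 2-fold. Among all 7003 genes compared in this gate, 12.2% were lower and 7.67% were higher by the same rule. The median log2 ratio of the compared collagens was -2.60, beside -0.05 for all compared genes.

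**Figure D1:**
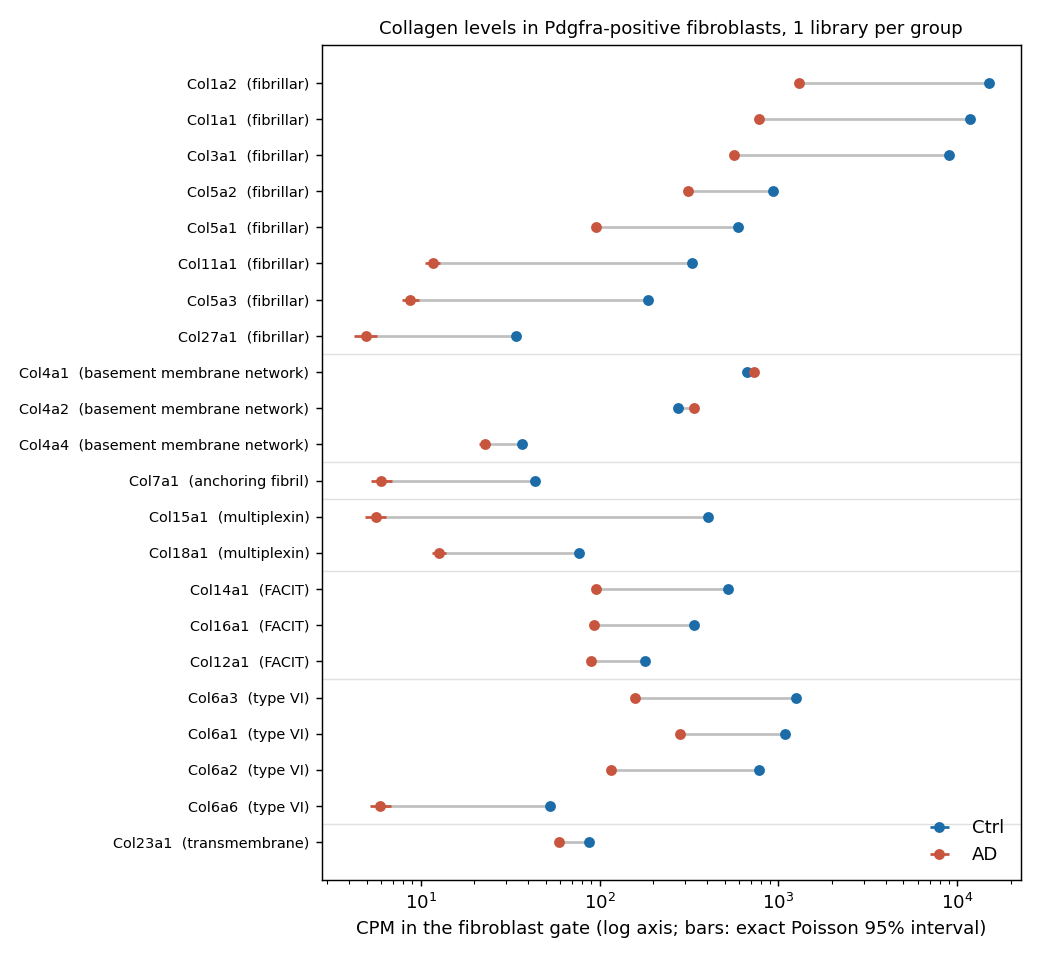
CPM of the 22 compared collagens in the fibroblast gate of the Ctrl library (blue) and the AD library (red), on a log axis, grouped by class, with exact Poisson 95% intervals. All members but Col4a1 and Col4a2 lie lower in AD, and Col15a1 moves farthest, from 404 to 5.60 CPM.

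All 8 compared fibrillar genes were lower in AD. Col1a1 (chr11:94936224-94953042), which encodes the α1 chain of type I collagen, stood at 11735 CPM (11704 to 11766) in Ctrl and 775 CPM (766 to 784) in AD. Its partner chain Col1a2 stood at 14957 CPM in Ctrl against 1298 CPM in AD. Col3a1, the single chain of type III collagen, stood at 9008 CPM in Ctrl against 566 CPM in AD. These are 15.1-fold, 11.5-fold and 15.9-fold lower levels in AD, with log2 ratios of -3.92 (-3.94 to -3.90), -3.53 and -3.99. By level, Col1a2, Col1a1 and Col3a1 ranked 2, 4 and 5 among all genes of the Ctrl fibroblast gate, and 122, 206 and 269 in AD.

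The chains that regulate fibril assembly spread over a wider range. Col5a1 was at 594 CPM in the Ctrl library and 94.98 CPM in the AD library, and Col5a2 at 937 and 314 CPM, the smallest difference of the compared fibrillar genes (2.98-fold). Col5a3 stood at 187 and 8.76 CPM, 21.4-fold lower. Col11a1 stood at 328 and 11.7 CPM, 28.0-fold lower in AD, while Col27a1 stood at 34.1 and 4.92 CPM. The Col11a1 ratio depended on cells with an Acta2 UMI: without them its log2 ratio was -3.05 in place of -4.81. Of the other fibrillar genes, Col2a1, Col11a2 and Col24a1 were below 20 CPM in both libraries.

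The basement membrane type IV genes Col4a1 and Col4a2 did not share that difference. Col4a1 (chr8:11198423-11312826) was at 667 CPM (660 to 675) in Ctrl and 729 CPM (720 to 738) in AD, and Col4a2 (chr8:11312805-11449287) at 275 CPM (270 to 280) and 337 CPM (331 to 343). Their log2 ratios were 0.13 (0.10 to 0.15) and 0.30 (0.26 to 0.33), slightly higher in AD beyond counting error and far under 2-fold. The direction of Col4a1 was not the same in every set of fibroblasts. Cells with a Dpp4 UMI had 555 CPM in Ctrl and 506 CPM in AD, and cells without an Fmo2 UMI had 666 and 628 CPM. Cells with an Fmo2 UMI had 674 and 787 CPM, and Col4a1 was also higher in AD in cells with Acta2, Lrig1 or Prdm1. Col4a4, a chain of the specialised type IV networks, was at 36.7 and 22.8 CPM. Col4a5 was at 14.7 CPM in Ctrl against 0.95 CPM in AD, below the level used for comparison, a 15.4-fold lower level. Col4a3 (7.65 and 4.05 CPM) and Col4a6 (0.70 and 0.16 CPM), also below that level, were lower in AD as well. With the fibrillar genes lower, type IV went from 2.30% of the collagen UMIs of the gate in Ctrl to 21.4% in AD, and fibrillar genes from 86.6% to 60.2%.

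The other collagens of the basement membrane zone behaved unlike Col4a1 and Col4a2. Col15a1 (chr4:47208161-47313167), found in the zone around vessels, muscle and nerves, was at 404 CPM in Ctrl against 5.60 CPM in AD. That is 72.1-fold lower, and only 3 of the 7003 compared genes had a lower ratio. Col18a1, whose C-terminal fragment is endostatin, was at 76.4 and 12.7 CPM. Col7a1, the anchoring fibril collagen, was at 43.8 and 6.04 CPM, and its log2 ratio of -2.86 became -2.08 without cells that had an Acta2 UMI.

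Type VI and FACIT genes were lower in AD to a smaller extent than types I and III. Col6a1 stood at 1083 and 281 CPM, Col6a2 at 775 and 115 CPM, and Col6a3 at 1247 and 159 CPM, which are 3.86-fold, 6.71-fold and 7.85-fold lower in AD. Col6a1 and Col6a2 encode chains of the same heterotrimer, and the ratio of Col6a1 to Col6a2 UMIs went from 1.40 (1.38 to 1.42) in Ctrl to 2.43 (2.34 to 2.52) in AD. Col6a6 was at 52.8 and 5.95 CPM, and Col6a5 at 1.01 and 0.22 CPM, with only 48 and 8 UMIs. Of the FACIT genes, Col14a1 was at 521 and 95.3 CPM, Col16a1 at 339 and 93.5 CPM, and Col12a1 at 179 and 89.3 CPM. Without cells that had an Acta2 UMI the Col12a1 log2 ratio was 0.25 in place of -1.003, so its direction in this gate turned on those cells.

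Of the remaining classes, only Col23a1, a transmembrane collagen, was compared in fibroblasts, at 87.0 CPM in Ctrl against 59.6 CPM in AD. The 22 members below 20 CPM ranged up to 14.7 CPM (Col4a5) in Ctrl and 11.1 CPM (Col8a1) in AD.

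**Figure D2:**
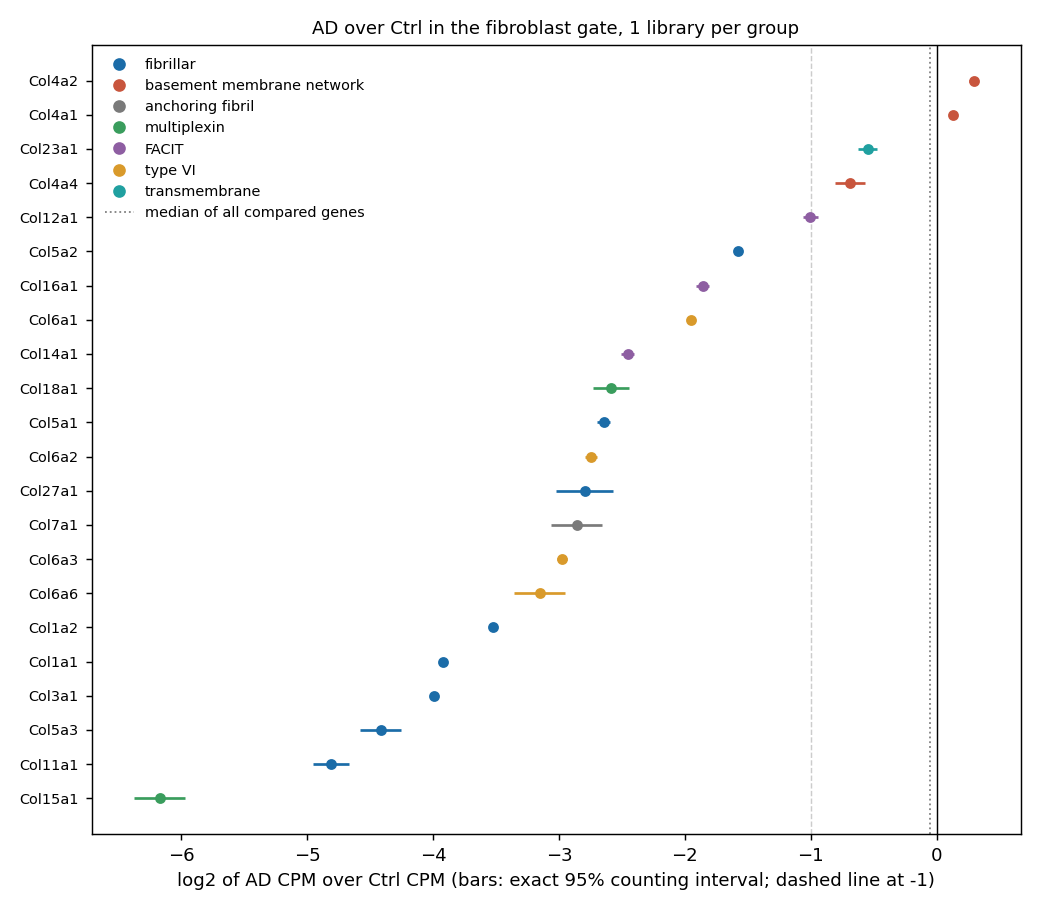
log2 of AD over Ctrl CPM for the 22 compared collagens in the fibroblast gate, coloured by class, with exact 95% counting intervals; the dotted line is the median of all 7003 compared genes (-0.05) and the dashed line marks -1. Col4a1 and Col4a2 lie right of 0, and Col15a1, at -6.17, lies farthest left.

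The lower level extended over the whole range of cells in the gate. The median fibroblast-gate cell had 5478 CPM of Col1a1 in Ctrl and 159 CPM in AD, and the 90th percentile was 31149 and 1329 CPM. For Col3a1 the medians were 5495 and 0 CPM. Levels above 10000 CPM of Col1a1 were reached by 32.9% of the cells in Ctrl and by 0.35% in AD. For Col4a1 the medians were 433 and 471 CPM and the 90th percentiles 1479 and 1550 CPM.

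**Figure D3:**
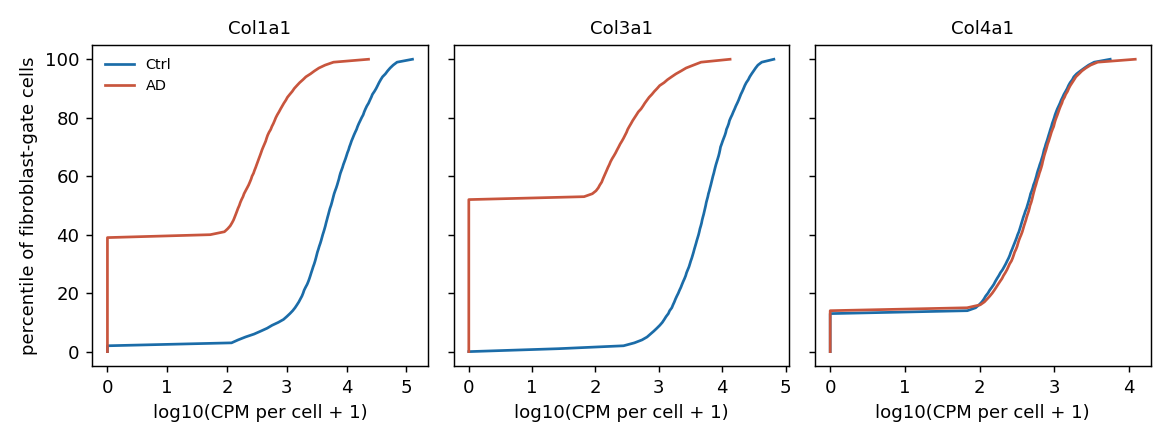
Percentile of fibroblast-gate cells against log10(CPM per cell + 1) for Col1a1, Col3a1 and Col4a1 in Ctrl (blue, 4940 cells) and AD (red, 4834 cells). The curves of Col1a1 and Col3a1 are displaced along their whole length, with medians of 5478 against 159 and 5495 against 0 CPM, whereas those of Col4a1 nearly coincide.

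A Col1a1 UMI was present in 97.6% of Ctrl fibroblast-gate cells (97.1 to 98.0) and 60.1% of AD cells (58.7 to 61.5). With each cell thinned to 1000 UMIs, leaving out 44 Ctrl and 153 AD cells that were shallower, the shares were 88.3% and 26.6%. The immune gate, with a median of 3534 and 5487 UMIs a cell, gave 23.2% and 1.90% after the same thinning, and these shares are given as background. For Col4a1 the thinned shares were 39.8% in Ctrl and 41.7% in AD fibroblasts (86.4% and 85.2% unthinned), beside 1.47% and 1.54% in the immune gate. For Col15a1 the thinned shares were 30.0% and 0.555% in fibroblasts, and 1.07% and 0.119% in the immune gate.

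Fibroblasts were also divided by single marker UMIs, each set described beside the other fibroblast-gate cells. A UMI marks a cell only where the gene was captured, and marked cells had the higher median depth except those with Prdm1 in both libraries and those with Acta2 in AD. Cells with Dpp4, a gene of papillary and fascial fibroblast subsets, were 56.5% of the Ctrl gate and 32.8% of the AD gate. Cells with Fmo2 were 17.2% and 60.4%, and cells with Acta2, a gene of contractile fibroblasts and the dermal sheath, 16.3% and 2.59%. Total collagen in each of the 6 marked sets was lower in AD, with log2 ratios from -3.45 (Dpp4) to -2.31 (Fmo2), and in the unmarked remainders from -3.21 to -3.05.

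Members differed between these sets in both libraries. Col11a1 was at 1216 CPM in Acta2-positive and 81.9 CPM in Acta2-negative cells of Ctrl, and at 83.1 and 9.85 CPM in AD. Col12a1 followed, at 562 and 72.5 CPM in Ctrl and 211 and 86.1 CPM in AD. Col14a1 was higher in Dpp4-positive cells, at 691 against 273 CPM in Ctrl and 157 against 63.0 CPM in AD. Col23a1 was higher in cells with Prdm1, a gene of papillary lineage fibroblasts, at 363 against 43.2 CPM in Ctrl and 174 against 47.8 CPM in AD. The marked cells stood above the unmarked in both libraries for each of these pairs of gene and marker. By contrast, Col23a1 in Lrig1-positive cells was at 46.5 CPM in Ctrl against 115 CPM in AD, above its level in Lrig1-negative AD cells (32.3 CPM) and below that in Lrig1-negative Ctrl cells (108 CPM).

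Genes that modify, fold, export and crosslink collagen were followed on a list of 30, of which 24 reached the level for comparison in the fibroblast gate. Of these, 12 were lower in AD by 2-fold or more and 1 was higher, with a median log2 ratio of -1.07, beside 12.2% and 7.67% of all genes and a median of -0.05. Creb3l1, a transcription factor of the secretory pathway, was at 250 and 44.2 CPM. Serpinh1, the collagen chaperone HSP47, was at 1420 and 347 CPM, and Crtap, part of the prolyl 3-hydroxylation complex, at 89.3 and 21.1 CPM. Lox, a lysyl oxidase that crosslinks collagen outside the cell, was higher in AD, 177 CPM against 831 CPM (log2 ratio 2.23, 2.20 to 2.27). Of 8 collagen receptors, 5 were compared: Mrc2, an endocytic receptor for collagen, was lower (133 and 50.5 CPM). Itga11, Ddr2, Itgb1 and Itga1 stayed within 2-fold, with the integrin chain Itga11 at 35.2 and 20.2 CPM, the receptor kinase Ddr2 at 459 and 341 CPM, and the shared integrin chain Itgb1 at 489 and 372 CPM.

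Outside fibroblasts the class that was highest depended on the gate.

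**Figure D4:**
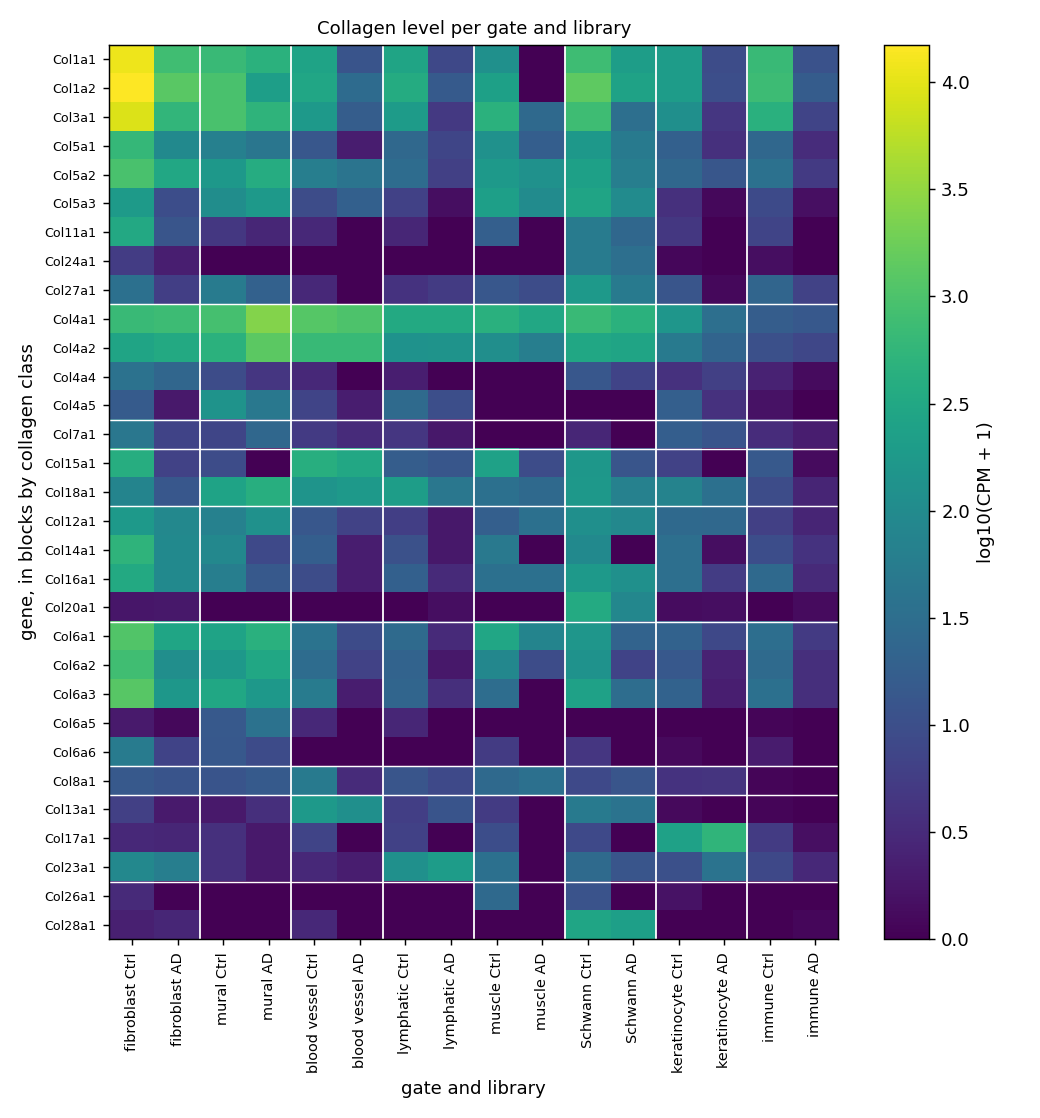
log10(CPM + 1) of every collagen that reached 20 CPM in any gate (rows, in blocks by class) in the Ctrl and AD columns of 8 gates. Col1a1, Col1a2 and Col3a1 are highest in the fibroblast column of Ctrl, Col20a1 and Col28a1 stand out in the Schwann columns, Col17a1 in the keratinocyte columns and Col13a1 in the blood vessel columns.

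Mural cells (pericytes and vascular smooth muscle, 205 Ctrl and 135 AD cells) carried 5761 CPM of all collagens in Ctrl and 7359 CPM in AD, a log2 ratio of 0.35 that became -0.87 when cells with a Pdgfra UMI were let into the gate. Col4a1 was at 862 CPM (808 to 919) in Ctrl and 2559 CPM (2465 to 2655) in AD. Col4a2 was at 461 CPM (421 to 503) and 1343 CPM (1275 to 1413). Both were about as far apart as each other on the log2 scale, 1.57 (1.46 to 1.68) and 1.54 (1.40 to 1.69), and the ratio of Col4a1 to Col4a2 UMIs was 1.87 in Ctrl and 1.91 in AD. Of 19 compared members, 5 were higher in AD by 2-fold or more and 5 lower, beside 6.3% and 9.81% of the genes compared in this gate.

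Higher by 2-fold or more in mural cells were Col4a1, Col4a2, Col5a2, Col6a5 and Col7a1. Col5a2 was at 167 and 382 CPM. Col6a5 was at 13.8 CPM in Ctrl against 37.1 CPM in AD on 15 and 41 UMIs, and Col7a1 at 6.46 and 23.6 CPM on 7 and 26 UMIs. Lower by 2-fold or more were Col4a5 (140 and 46.2 CPM), Col27a1 (52.6 and 19.0 CPM), Col1a2 (961 and 219 CPM), Col14a1 and Col16a1. Within 2-fold and higher in AD were Col18a1 at 264 and 410 CPM, Col6a1 at 258 and 440 CPM and Col6a2 at 165 and 311 CPM. So were Col5a3 at 111 and 178 CPM and Col12a1 at 68.3 and 128 CPM. Within 2-fold and lower in AD were Col6a3 at 303 and 169 CPM and Col3a1 at 952 and 523 CPM. So were Col1a1 at 683 and 463 CPM and Col5a1 at 63.7 and 42.6 CPM. For Col1a1 the Ctrl level was within counting error of the 667 CPM (647 to 687) of the immune gate, and a ratio after subtracting that level could not be read. For all fibrillar genes together the log2 ratio was -0.71, and it was 0.76 with the immune gate subtracted and -0.24 with the lymphatic gate subtracted. The mural Ctrl gate held Acta2 at 5514 CPM and the AD gate at 3171 CPM, and the part of smooth muscle and pericyte shares in these values was not tested.

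Against fibroblasts of the same library, mural cells were higher for type IV in both. Col4a1 was 1.29-fold the fibroblast level in Ctrl and 3.51-fold in AD, and Col4a2 1.68-fold and 3.98-fold. Col18a1 was 3.46-fold the fibroblast level in Ctrl and 32.2-fold in AD, where the fibroblast level itself was 12.7 CPM. Col5a3 was 20.4-fold the fibroblast level in AD. In AD 18.5% of all Col5a3 UMIs of kept cells lay in the mural gate, as against 1.09% in Ctrl. The mural gate was not the largest holder outside fibroblasts in AD. It held 197 Col5a3 UMIs, and the 74 adipocyte-gate cells of AD held 223. The adipocyte gate of Ctrl was 1 cell.

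Blood vessel endothelium (90 Ctrl and 99 AD cells) was led by type IV in both libraries. Col4a1 was at 1177 CPM (1082 to 1278) in Ctrl and 1036 CPM (970 to 1105) in AD, and Col4a2 at 644 CPM (574 to 719) and 652 CPM (600 to 708). Col15a1 was at 415 CPM (360 to 477) and 312 CPM (277 to 352), a log2 ratio of -0.41 (-0.68 to -0.14) beside -6.17 in fibroblasts. Col18a1 was at 143 CPM (111 to 181) and 183 CPM (156 to 214). Col13a1, a transmembrane collagen, was at 176 and 120 CPM, 34.5-fold and 116-fold its fibroblast level of 5.11 and 1.03 CPM.

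Of 13 compared members, 7 were lower in blood vessel cells of AD by 2-fold or more and 0 were higher, beside 13.8% and 5.34% of genes compared. The lower ones included Col1a1 (260 and 11.3 CPM), Col1a2 (291 and 28.3 CPM) and Col3a1 (174 and 15.8 CPM), each under the immune-gate level in Ctrl. Col8a1 was also lower (49.8 and 2.26 CPM on 24 and 2 UMIs). The share of Col15a1 UMIs lying in the fibroblast gate went from 80.7% in Ctrl to 32.2% in AD, and the share in blood vessel cells from 0.844% to 43.2%. Because the median of all compared genes in this gate was -0.19, the log2 ratio of -0.18 for Col4a1 was 0.01 relative to that median. The log2 ratio of all collagens in the gate, -0.56, became 0.68 with the immune gate subtracted, -0.10 with the lymphatic gate subtracted and -1.74 with Pdgfra UMIs allowed.

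**Figure D5:**
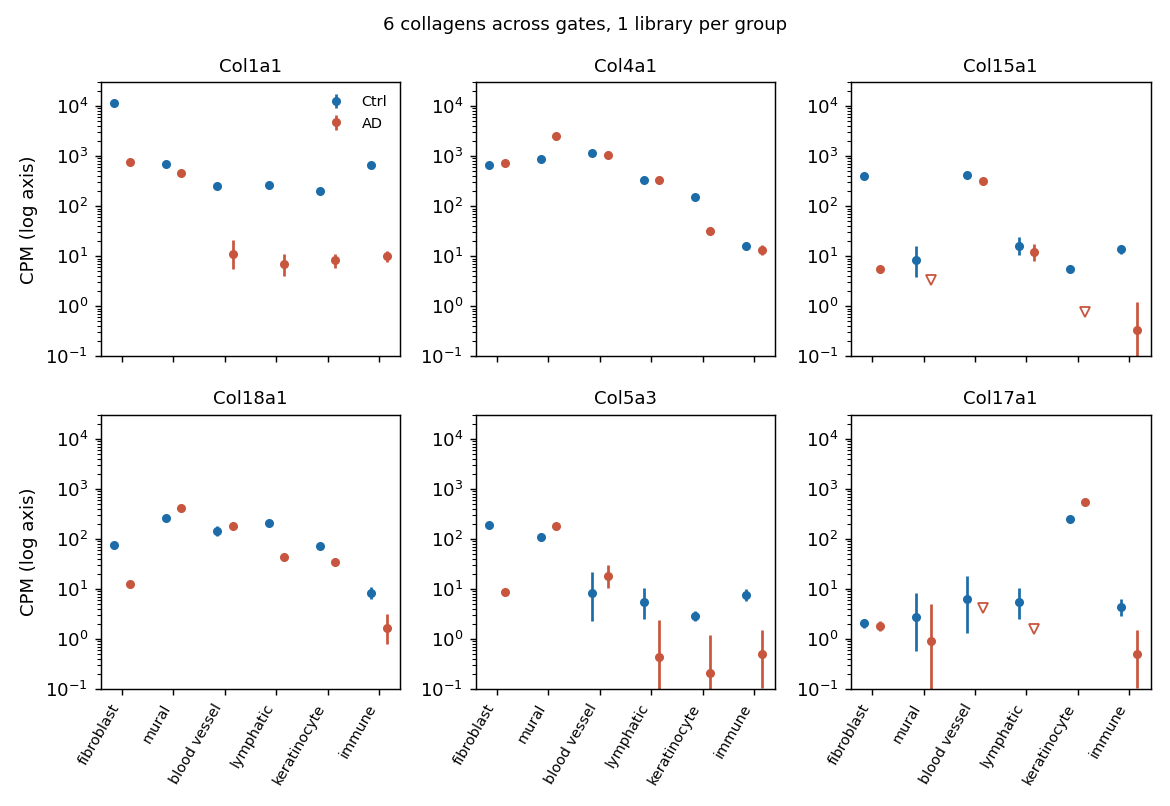
CPM (log axis) of Col1a1, Col4a1, Col15a1, Col18a1, Col5a3 and Col17a1 in 6 gates for Ctrl (blue) and AD (red), with exact Poisson 95% intervals; open triangles mark the upper limit where no UMI was counted, and bars that reach the lower edge are cut there. Col15a1 is 415 and 312 CPM in blood vessel cells but 404 and 5.60 CPM in fibroblasts, and Col4a1 is highest in mural cells of AD (2559 CPM).

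Lymphatic endothelium (272 Ctrl and 275 AD cells) had Col4a1 at 337 and 338 CPM and Col4a2 at 132 and 140 CPM, with log2 ratios of 0.00 (-0.15 to 0.16) and 0.09 (-0.16 to 0.34). Col23a1 was at 122 CPM (105 to 140) in Ctrl and 204 CPM (186 to 223) in AD, above its fibroblast level in both. Col18a1 was at 206 CPM (185 to 230) and 43.7 CPM (35.6 to 53.1), a direction opposite to that of mural cells. Col13a1 was at 4.84 and 11.3 CPM, Col15a1 at 16.3 and 12.1 CPM, and Col4a5 at 26.6 and 9.09 CPM. Of 12 compared members, 9 were lower in AD and 0 higher, beside 6.8% and 3.09% of genes compared. The lower set included Col1a1 (271 and 6.93 CPM), Col1a2 (366 and 14.3 CPM) and Col3a1 (191 and 3.90 CPM), each under the immune-gate level in Ctrl. Col5a2, Col6a1 and Col6a3, in the same set, stood at 28.5, 26.6 and 22.4 CPM in Ctrl. The immune gate had 34.6, 31.6 and 34.3 CPM. Col5a1 stood at 24.8 CPM (17.8 to 33.7) in Ctrl, beside 23.3 CPM. Col4a5 and Col18a1, the rest of the lower set, stood above the immune-gate levels of 0.60 and 8.38 CPM.

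The muscle gate (55 Ctrl and 35 AD cells) was met by satellite cell markers in every cell and by fibre markers in none, and Acta1 and Ckm, which mark muscle fibres, stood at 4.28 and 0 CPM in Ctrl and at 0 CPM in AD. The cells are called satellite-like here, and muscle fibres are not represented. The log2 ratio of all collagens in this gate, -1.69, became 0.19 with the immune gate subtracted, -4.21 with the lymphatic gate subtracted and -3.64 with Pdgfra UMIs allowed. Col4a1 was at 454 CPM (372 to 549) in Ctrl and 320 CPM (227 to 440) in AD, and Col4a2 at 116 and 59.0 CPM. Col15a1 was at 244 CPM (185 to 316) in Ctrl on 57 UMIs and at 8.43 CPM (0.21 to 47.0) in AD on 1 UMI. Col5a3 was at 223 and 101 CPM, Col5a2 at 171 and 126 CPM, Col6a1 at 296 and 75.9 CPM, and Col3a1 at 463 and 25.3 CPM. No Col1a2 UMI was counted in AD, where the interval reached 31.1 CPM, against 231 CPM in Ctrl, itself under the 731 CPM of the immune gate. Of 19 compared members, 12 were lower and 0 higher, beside 18.7% and 17.6% of genes compared. The lower ones included Col6a3, Col14a1, Col23a1 and Col26a1, on 7, 11, 8 and 6 UMIs in Ctrl and 0 in AD. With 3 UMIs put in place of 0 in AD, these were only 1.19-fold, 1.86-fold, 1.35-fold and 1.02-fold higher in Ctrl, under the 2-fold rule.

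Schwann cells (181 Ctrl and 98 AD cells) had Col28a1 and Col20a1 far above their level in fibroblasts. Col28a1, a collagen of peripheral nerve, was at 287 CPM (244 to 336) in Ctrl and 225 CPM (177 to 282) in AD, 212-fold and 124-fold its fibroblast level. Col20a1, a FACIT member, was at 356 CPM (308 to 410) and 85.9 CPM (57.5 to 123), 468-fold and 102-fold the fibroblast level. Those fibroblast levels were low, at 1.35 and 1.82 CPM for Col28a1 and 0.76 and 0.84 CPM for Col20a1. Of all Col20a1 UMIs in kept cells, 67.8% lay in this gate in Ctrl and 39.2% in AD (29 of 74 UMIs), and for Col28a1 59.4% and 43.2%. The log2 ratio for Col28a1, -0.35 (-0.77 to 0.05), included 0 in its counting interval, and that for Col20a1, -2.05 (-2.67 to -1.48), did not. Mbp, a myelin gene not used by the gate, was at 5767 CPM in Ctrl against 1724 CPM in AD, and its part in these values was not tested.

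Among other members in Schwann cells, Col4a1 was at 678 and 456 CPM, Col4a2 at 305 and 276 CPM, Col16a1 at 173 and 121 CPM, Col24a1 at 52.7 and 32.6 CPM and Col13a1 at 49.1 and 38.5 CPM. Larger differences were seen for Col27a1 (171 and 50.4 CPM), Col18a1 (169 and 68.1 CPM) and Col5a3 (276 and 104 CPM). Col1a1, Col1a2 and Col3a1 were at 751, 1352 and 743 CPM in Ctrl and at 213, 252 and 32.6 CPM in AD, levels that in Ctrl were within 2-fold of those in the immune gate. With the immune-gate CPM subtracted the log2 ratio of Col1a1 went from -1.82 to 1.28, and with the lymphatic gate subtracted to -1.22. Of 23 compared members, 16 were lower and 0 higher, beside 13.6% and 9.19% of genes compared.

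Keratinocytes (1804 Ctrl and 329 AD cells) were led by Col17a1 (chr19:47646344-47692094), at 246 CPM (240 to 252) in Ctrl and 540 CPM (519 to 561) in AD. Its log2 ratio was 1.13 (1.07 to 1.20), and 79.0% and 77.6% of all its UMIs lay in this gate. The thinned share of cells with a Col17a1 UMI was 17.2% in Ctrl and 37.3% in AD (50.4% and 80.9% unthinned), beside unthinned shares of 1.83% and 0.352% in the immune gate. Median depth was 14069 and 10082 UMIs a cell in keratinocytes and 3534 and 5487 in the immune gate. The make-up of the gate differed between the libraries, and its part in this was not tested: Krt14, of basal cells, was at 1386 CPM in Ctrl against 3619 CPM in AD, and Krt10, of suprabasal cells, at 6781 and 541 CPM. Col23a1 was at 9.38 and 37.3 CPM and Col8a2 at 1.12 and 7.85 CPM, both higher in AD.

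Basement membrane genes of keratinocytes were mostly lower in AD, Col4a1 by the most UMIs. Col4a1 was at 156 CPM (151 to 160) and 32.0 CPM (27.1 to 37.5), Col4a5 at 17.2 and 2.97 CPM, and Col18a1 at 71.5 and 34.1 CPM. Col7a1 was at 16.7 CPM (15.2 to 18.3) and 11.2 CPM (8.42 to 14.7), Col4a6 at 8.49 and 6.15 CPM, and the FACIT gene Col12a1 at 26.2 and 24.6 CPM. For Col4a6 and Col12a1 the counting interval of the ratio included 0 on the log2 scale. Col4a6 was 12.2-fold and 37.7-fold its fibroblast level, which was only 0.70 CPM in Ctrl and 0.16 CPM in AD. On the log2 scale the AD ratio over fibroblasts was 5.24 (3.94 to 6.79). Of the Col4a6 UMIs in Ctrl, 53.9% lay in this gate. Col9a3 and Col25a1 were above their fibroblast level in Ctrl but under 1 CPM. Of 12 compared members, 8 were lower and 2 (Col17a1 and Col23a1) higher, beside 10.6% and 5.8% of genes compared. Col1a1, Col1a2 and Col3a1, at 201, 205 and 121 CPM in Ctrl and 8.27, 9.12 and 3.60 CPM in AD, were below the immune-gate level in both libraries.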

How the data were processed

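Single-cell RNA was read by droplet capture of 3′ transcript ends in 1 Ctrl and 1 AD library. The authors deposited 1 count matrix per library, whole-number counts of UMIs per gene and cell. Their processing notes name Cell Ranger 3.1.0, Seurat 5.0 and the mm10 build, whereas the matrix header names cellranger 5.0.0; the difference could shift counts slightly and was not resolved. The filter kept cells in which 200 to 6000 genes were detected and no more than 10% of UMIs were mitochondrial. A cell entered a gate by the number of its markers with a UMI, cells in more than 1 gate were left out, and cells with a Pdgfra UMI entered no gate but the fibroblast gate. UMIs were summed per gate and library and given as CPM. Genes at 20 CPM or more in either library were compared, and a log2 ratio of at least 1 in size with 1 CPM added was counted. With 1 library a group no test was run. Intervals are exact and at 95%.

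In fibroblasts every member at 20 CPM is named; in other gates, the 5 members highest in either library and those above the fibroblast level with at least 20 UMIs. Members and lists were chosen with earlier results of these data known. Shares were also computed after thinning each cell to 1000 UMIs. The alternatives changed the cell filter, the gates, the weighting, the scaling, the minimum level, doublets and the subtraction of another gate's level. Scrublet, as run in scanpy 1.11.5, called 395 doublets (3.47%) in Ctrl and 0 in AD, so it did not work in AD and doublets there were limited only by the gates. Scripts used Python 3.11.15, numpy 2.4.6, scipy 1.17.1 and pandas 2.3.3, and were tested on simulated data. All 44 members matched GENCODE M21 (GRCm38) by gene identifier. Promoter sequences came from RefSeq GRCm38.p6.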

Additional observations from a re-analysis of the deposited data

Results flagged for a closer look

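These are class totals whose log2 ratio of AD over Ctrl had the opposite sign to that of the fibroblast gate, with both counting intervals clear of 0 and the immune gate left aside; in the other gates, totals of opposite sign not given here had an interval that held 0 in either gate compared. With 1 library a group the difference between gates was not tested. In mural cells the ratio was 0.35 for all collagens, 1.87 for the anchoring fibril class (Col7a1 alone, on 7 and 26 UMIs), 0.59 for multiplexins and 0.35 for type VI, beside -3.09, -2.86, -4.71 and -2.49 in fibroblasts. For the basement membrane network it was -0.59 in the muscle gate, -0.44 in Schwann cells and -1.82 in keratinocytes, beside 0.13 in fibroblasts. For short-chain network collagens it was 1.39 in keratinocytes, beside -0.76 in fibroblasts. For transmembrane collagens it was 0.71 in lymphatic cells, where Col23a1 was the main member, and 1.17 in keratinocytes, where Col17a1 was, beside -0.60 in fibroblasts.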

How the results depend on the processing

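No paired analysis was possible because each group is 1 library and the labels give no shared replicate numbers, and for the same reason no library could be left out in turn. All ratios here are log2 of AD over Ctrl. In fibroblasts the ratio of all collagens (-3.09) was -3.16 over all barcodes, -3.04 with at least 2 Pdgfra UMIs, -3.08 with 3 of 5 markers, -3.07 without Acta2 cells, -3.34 as a mean over cells, -3.15 scaled without collagen UMIs, -3.04 centred on the median gene and -3.10 without called doublets. Of 297 fibroblast values under alternatives, 1 reversed (Col12a1, 0.25 without Acta2 cells). Members counted as lower were 13 to 20, and 0 were higher in any setting. In the main setting 17 of 22 compared members were lower, beside 12.2% of all genes compared. The minimum level was also set to 5 and to 100 CPM, which changes how many members are compared. The counts of 13 to 20 are therefore not out of 1 fixed number.

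Of 1021 values in other gates, 12 reversed. Over all barcodes the keratinocyte ratio (-0.77) was -1.09. As a mean over cells it was -0.80 in blood vessel cells (-0.56), where Col4a1 reversed to 0.085, and 0.16 in mural cells (0.35). Centred on the median gene the ratios were -0.37 in blood vessel cells, with Col4a1 at 0.0084, 0.41 in mural cells and -0.63 in keratinocytes. Without called doublets they were -1.04 in lymphatic cells (-1.18), 0.45 in mural cells and -0.61 in keratinocytes. With Pdgfra UMIs allowed they were -1.74 in blood vessel, -2.63 in lymphatic, -0.87 in mural (type VI at -0.12), -3.64 in muscle, -2.31 in Schwann and -2.06 in keratinocyte cells. With the immune gate subtracted they were 0.68 in blood vessel, 1.01 in mural (fibrillar at 0.76, Col1a1 at 4.78 from a Ctrl remainder within counting error of 0, Col3a1 at 0.038), 0.19 in muscle (Col3a1 at 0.45) and -1.10 in Schwann cells (Col1a1 at 1.28). With the lymphatic gate subtracted, an alternative chosen after seeing the data, they were -0.10 in blood vessel, 0.75 in mural (Col1a1 at 0.15), -4.21 in muscle and -1.77 in Schwann cells. Where a subtraction left nothing above 0 no value was given. The cause of these changes was not tested.

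Against fibroblasts of the same library, Col4a1 with Col4a2 as a mean over cells stood on the log2 scale at 0.46 in Ctrl and 0.37 in AD blood vessel cells and at 0.60 and 1.67 in mural cells, and with Pdgfra UMIs allowed at 0.28 and 1.76 in mural cells. Thinning took the fibroblast share with Col1a1 from 97.6% to 88.3% in Ctrl and from 60.1% to 26.6% in AD, and that with Col4a1 from 86.4% to 39.8% and from 85.2% to 41.7%.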

Other observations

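Melanocyte-gate cells (85 in Ctrl, 69 in AD) held Col12a1 at 289 CPM (249 to 333) in Ctrl and 614 CPM (517 to 723) in AD, and Col16a1 at 100.4 and 146 CPM. The 74 adipocyte-gate cells of AD held Col4a1 at 334 CPM, Col4a2 at 238 CPM and Col5a3 at 161 CPM, with Col1a1 at 2.16 CPM; the Ctrl gate was 1 cell and gives no comparison. Cells in no gate (1028 and 981) had 3.61% of their UMIs in collagens in Ctrl and 0.265% in AD, with Col1a1 at 10883 and 283 CPM and Col4a1 at 420.4 and 507 CPM.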
